A study of Caenorhabditis elegans with 2 samples.

Results

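Of 1223 autosomal peaks in the authors' thresholded list for TBX-2, 231 had their summit in a promoter shared by at least 2 protein-coding genes. A summit counted when it lay from 1000 bp upstream to 200 bp downstream of annotated transcript starts of 2 or more different protein-coding genes. The whole list held 1631 peaks, those of the X chromosome and of the mitochondrial genome included. In 208 of the 231, genes on opposite strands started on either side of the summit or close to it (divergent promoters), and in 23 all genes lay on the same strand. A further 458 autosomal peaks lay in the promoter window of a single coding gene, and 534 lay in no such window.

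TBX-2 binding was mapped by chromatin immunoprecipitation followed by sequencing (ChIP-seq) in whole Caenorhabditis elegans hermaphrodites at the L3 larval stage. The worms were of strain OP159, with the genotype unc-119(ed3) III; wgIs159, and a transgene in them makes TBX-2 that ends in GFP and FLAG. They were collected 48 h after synchronization as starved L1 larvae, and the precipitation used an antibody to GFP. There were 2 biological replicates in 1 group and no second condition, so every comparison here is between places in the genome. The transgene adds a tagged protein to worms that are not labelled as lacking their own tbx-2. Since whole worms were used, binding in few cells and weak binding in many cells cannot be told apart.

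T-box factors are DNA-binding regulators named for a domain first described in Brachyury, and they recognise short sites built around the letters GGTGTG. TBX-2 is known in worms for its part in making muscle of the anterior pharynx. The worm genome is compact, and many neighbouring genes are transcribed away from each other from the DNA between their starts. In well studied animals, mammals among them, genes of such divergent pairs are often active in most cells. A summit between 2 starts does not tell which of the genes, if any, the bound protein acts on, so all window genes of a peak are named together below. Other genes on the same strand can belong to operons, in which several genes are transcribed as 1 unit and the start annotated for a later gene need not be a start of transcription. Many worm mRNAs also have their first bases replaced by trans-splicing, so an annotated start can lie downstream of the true one.

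The DNA under the summits of the strongest divergent peaks is shown first, because these sequences share words that are rare in the flanking DNA. Each line gives 121 bases centred on the summit, on build ce11, read from the RefSeq sequence of the same assembly, WBcel235. Capitals mark the searched sites and words found on either strand. These are the GAGA repeat GAGAGA and the GC box GGGCGG, the T-box letters GGTGTG with or without a following A, and the 8-letter words described with the sequence results. The words were chosen after the sequences had been compared, so their presence here is not a test.
Y17G9B.5 / rpl-20, chrIV:4750005-4750125, plus strand: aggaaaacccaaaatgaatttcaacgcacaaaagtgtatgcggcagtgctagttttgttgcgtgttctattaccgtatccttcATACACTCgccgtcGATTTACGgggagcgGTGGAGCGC
rpl-15 / K11H12.8, chrIV:654865-654985, plus strand: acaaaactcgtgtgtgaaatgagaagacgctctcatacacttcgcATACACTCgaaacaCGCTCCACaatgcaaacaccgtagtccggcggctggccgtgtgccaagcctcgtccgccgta
tasp-1 / K01G5.10, chrIII:10759186-10759306, plus strand: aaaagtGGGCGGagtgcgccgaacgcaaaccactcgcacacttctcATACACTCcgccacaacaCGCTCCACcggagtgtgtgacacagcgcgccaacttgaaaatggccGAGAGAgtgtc
tag-340 / nhl-2, chrIII:4899883-4900003, plus strand: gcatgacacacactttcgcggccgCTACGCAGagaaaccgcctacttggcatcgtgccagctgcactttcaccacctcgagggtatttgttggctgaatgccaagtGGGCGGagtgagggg
drr-2 / set-16, chrIII:13643670-13643790, plus strand: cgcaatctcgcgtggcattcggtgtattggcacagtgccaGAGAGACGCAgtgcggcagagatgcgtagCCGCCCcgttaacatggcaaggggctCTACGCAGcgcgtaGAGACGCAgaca
rps-1 / ifet-1, chrIII:4475593-4475713, plus strand: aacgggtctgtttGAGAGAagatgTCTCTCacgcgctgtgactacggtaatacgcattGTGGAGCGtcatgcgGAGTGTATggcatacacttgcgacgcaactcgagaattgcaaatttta
The words CGCTCCAC and ATACACTC, or their reverse complements, stood close to each other under the summits of the rpl-20, rpl-15, tasp-1 and rps-1 promoters. The next lines show the strongest same-strand peaks, upstream of sec-61.G, ddp-1 and rpb-11, and the strongest peak whose sequence held the longer T-box site GGTGTGA.
sec-61.G / F32D8.13, chrV:10897318-10897438, plus strand: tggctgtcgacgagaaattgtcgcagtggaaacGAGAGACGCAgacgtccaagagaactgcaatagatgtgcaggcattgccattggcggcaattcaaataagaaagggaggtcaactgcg
ddp-1 / ttc-7, chrIII:1859683-1859803, plus strand: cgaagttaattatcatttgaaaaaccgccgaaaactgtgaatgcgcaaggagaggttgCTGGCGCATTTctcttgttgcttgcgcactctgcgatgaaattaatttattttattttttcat
rpb-11 / W01G7.4, chrII:14059900-14060020, plus strand: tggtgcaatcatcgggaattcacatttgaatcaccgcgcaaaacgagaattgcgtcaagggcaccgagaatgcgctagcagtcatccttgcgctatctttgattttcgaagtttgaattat
K04G7.1 / syf-2, chrIII:7162454-7162574, plus strand: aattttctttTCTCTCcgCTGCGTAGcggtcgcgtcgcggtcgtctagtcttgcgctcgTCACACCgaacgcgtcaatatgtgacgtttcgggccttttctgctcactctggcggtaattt
Only the last of these 10 sequences holds a T-box match, printed as its reverse complement TCACACC.

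The peaks in shared promoters were stronger on the median than other autosomal peaks. Their signal value, the peak caller's own measure of strength, had a median of 164.7 in the pooled list (quartiles 115 and 242, range 91.64 to 1172). The median over the single-gene promoter peaks was 136.3 (quartiles 108.4 and 200.5, highest 1583), that over peaks outside coding promoter windows was 130.9, and that over all autosomal peaks was 137.5. In replicate 1 the medians were 92.38 for shared and 76.58 for single-gene promoters, and in replicate 2 they were 73.06 and 64.71. The ratio of shared to single-gene medians was 1.21 in the pooled list. It was 1.2 when peaks were ranked and chosen from replicate 1 alone and 1.17 from replicate 2 alone. The distributions overlapped over most of their range, as the plot of signal values by place shows, and no test of this ratio was run.

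**Figure D1:**
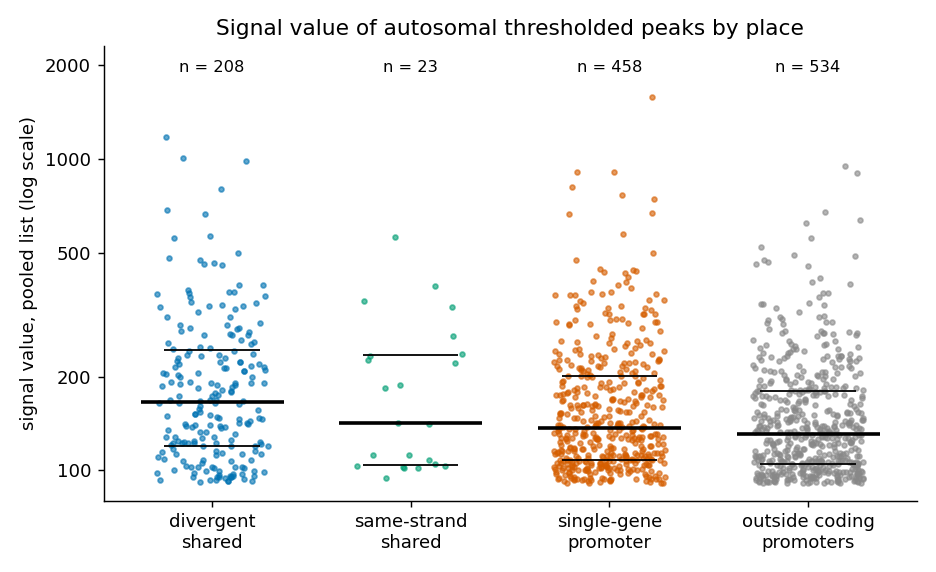
Signal value in the pooled list (log axis) of each autosomal thresholded peak, by the place of its summit. Points are peaks, spread sideways at random, thick lines are medians and thin lines are quartiles; the shared promoters' divergent median of 165.8 lies above the single-gene median of 136.3, with broad overlap.

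The further up the ranking, the larger was the share of entries in shared promoters. The authors' pooled list ranks 30000 entries, background included, of which 24495 are autosomal, and the thresholded list holds its strongest entries. Of all autosomal ranked entries, 4.99% passed the threshold. Of the 1177 ranked entries in shared promoters 231 passed, which is 19.6% (exact Clopper-Pearson 95% interval 17.4 to 22%), against 6.82% of 6715 single-gene promoter entries and 3.22% of 16603 others. Among shared promoters the share was 20.1% for divergent and 16.4% for same-strand entries (intervals 17.7 to 22.6% and 10.7 to 23.6%). Shared promoters held 35 of the 100 strongest autosomal entries, and 14.1% of those ranked from 601 to 1223. They held 11% of the entries from 1224 to 2500, below the threshold, and 3.15% beyond rank 10000. Single-gene promoters fell less over the same ranks, from 40% of the first 100 entries to 25.2%. These intervals reflect only how many peaks were counted, and neighbouring peaks are not independent.

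**Figure D2:**
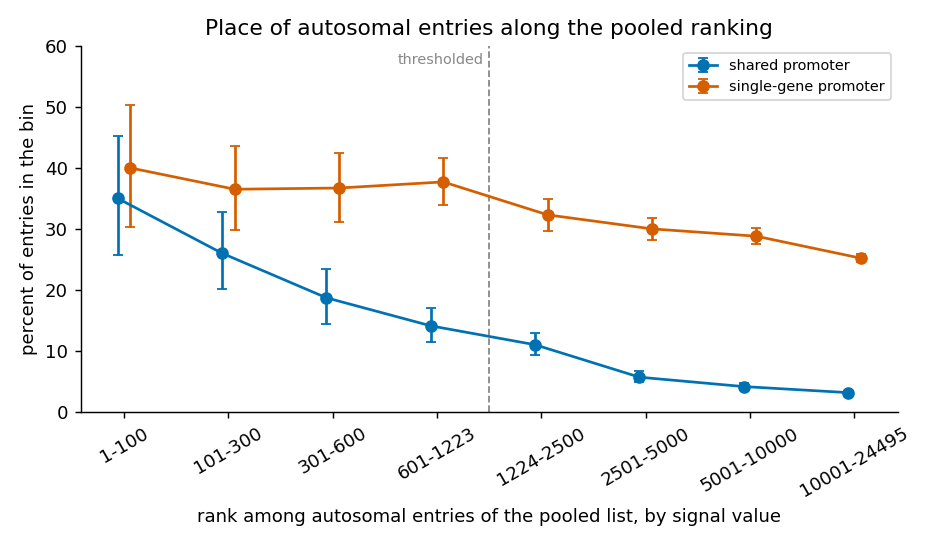
Percent of autosomal entries of the pooled list in shared (blue) and single-gene (orange) coding promoters, by rank of signal value. Bars are exact 95% binomial intervals and the dashed line is the authors' threshold; the shared share falls from 35% to 3.15% and the single-gene share from 40% to 25.2%.

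Counted by genes in place of peaks, a thresholded summit lay in the promoter window of 5.2% of the 17242 autosomal protein-coding genes. Of the 5507 genes whose start is paired with a divergent start so that both windows overlap, 513 had one, which is 9.32% (interval 8.56 to 10.1%). Of the 11735 genes in no such pair, 383 had one, which is 3.26% (2.95 to 3.6%). A summit in both windows of a pair counts for both genes, and the part of this in the difference was not tested. Paired genes are also not independent, which the intervals ignore. The gene classes differ in pairing: 547 of 730 chemoreceptor genes of the srh, str, sri, srd, srw and srx families were unpaired, and 0 of these 547 had a summit (exact 95% upper bound 0.672%). In all, 478 genes had a summit in a shared promoter, in 229 distinct gene sets.

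The distance between divergent starts went with how often a summit lay at them. Of 3022 autosomal divergent start pairs with overlapping windows, 226 had a thresholded summit in both windows, or 7.48% (6.57 to 8.47%). With starts 250 to 500 bp apart the share was 14.8% (81 of 547, interval 11.9 to 18.1%), and with 500 to 1000 bp it was 10.2% (88 of 863). Starts 0 to 250 bp apart had a summit in 6.15% of 390 pairs, and starts 1000 to 2000 bp apart in 2.57% of 1167. In the 55 pairs whose transcribed regions overlap at their starts, 3 had one, 5.45% (interval 1.14 to 15.1%). The DNA that both windows share differs in length between these classes. Per kb of that DNA, 0.198 pairs had a summit where the starts overlap, from these 3 pairs alone, 0.109 at 0 to 250 bp, 0.193 at 250 to 500 bp, 0.0959 at 500 to 1000 bp and 0.0498 beyond. Among same-strand pairs 43 of 1039 had a summit, 4.14% (3.01 to 5.53%), and 12 of the 105 pairs whose starts lay less than 250 bp apart. Per kb of shared DNA, 0.101 same-strand pairs had a summit at 0 to 250 bp, 0.0753 at 250 to 500 bp and 0.107 beyond. By this measure the closest same-strand pairs did not stand out, and divergent pairs at 0 to 250 bp and 500 to 1000 bp had similar values.

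Within divergent promoters the summits lay mainly between the starts. In 207 of 208 peaks the nearest starts on the 2 strands pointed away from each other without overlap, at a median distance of 519 bp (quartiles 345.5 and 778.5, range 15 to 1659). Of these summits, 193 (93.2%) lay between the starts, while 61.6% of the summed DNA in both windows lies there. The part from 25% to 75% of the way across held 126 summits (60.9%, interval 53.9 to 67.6%) and 33.4% of that DNA. The median summit stood 0.517 of the way from the minus-strand to the plus-strand start, and 52.7% were nearer the plus-strand start. The nearer start lay a median of 153 bp away and the farther start 357 bp, and in 141 peaks both starts were within 500 bp. Summits in single-gene promoters lay a median of 272.5 bp from the nearest window start, against 149 bp for all shared promoters. The rule itself favours summits with a start on either side, so these distances describe the chosen peaks.

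**Figure D3:**
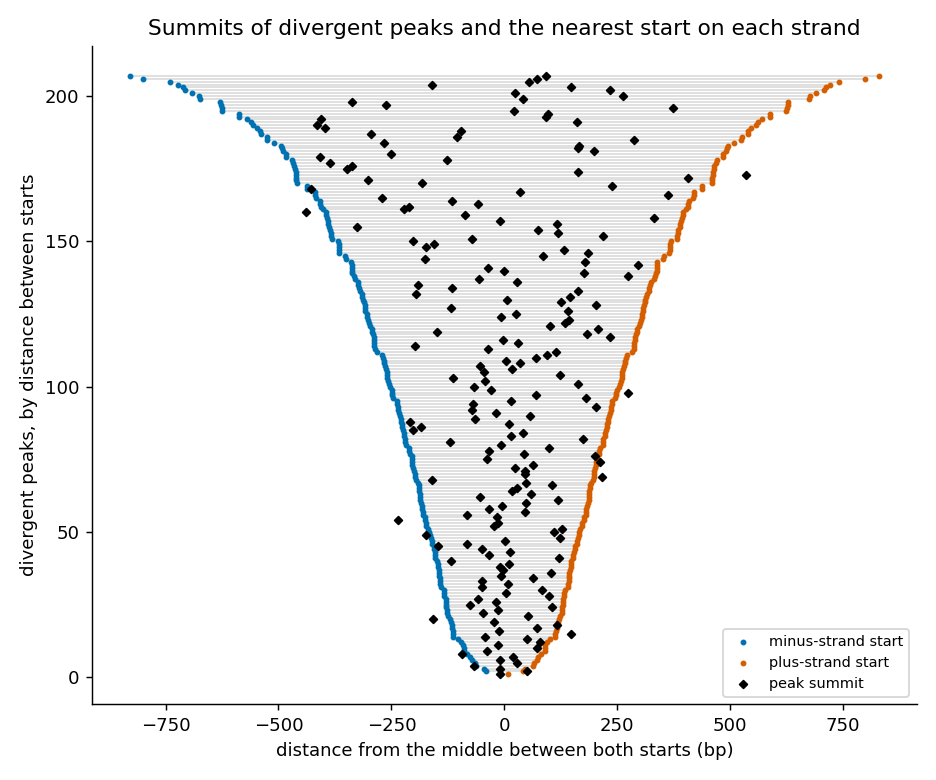
Position of the summit (black) between the nearest minus-strand (blue) and plus-strand (orange) coding start for 207 divergent peaks, in bp from the middle of the interval and sorted by its length. Most summits lie between the starts, 193 of 207, and 14 lie outside.

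In 14 of these promoters the summit lay just inside a transcribed region. The strongest of these was nhr-47 / dnj-19, a nuclear receptor and a DnaJ-type co-chaperone, with 192.6 in replicate 1, 131.3 in replicate 2 and 322.7 in the pooled list. Its summit was 19 bp inside nhr-47. In the remaining divergent peak, Y54E10BR.2 / rpb-7 with a pooled signal value of 119.9, the transcribed regions overlap at their starts.

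The strongest shared-promoter peak lay between Y17G9B.5 and rpl-20, a gene of the large ribosomal subunit. Its signal value was 620.6 in replicate 1, 554.6 in replicate 2 and 1172 in the pooled list, and its summit was 287 bp upstream of rpl-20 and 175 bp upstream of Y17G9B.5. The peak between rpl-15, also of the large subunit, and K11H12.8 had 558.3, 453 and 1008 in the same order. That between tasp-1, a threonine protease of the taspase family, and K01G5.10 had 510.8, 469.4 and 981.8. In contrast to the first pair, its summit was close to one of the starts, 61 bp upstream of tasp-1 and 724 bp upstream of K01G5.10.

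The fourth to sixth strongest peaks had signal values in the pooled list from 796.5 down to 662.9. The peak between nhl-2, a TRIM-NHL protein that works with microRNAs, and tag-340 had a signal value of 427.3 in replicate 1, 370.7 in replicate 2 and 796.5 pooled. The starts of this pair were 1423 bp apart, the longest interval among the 20 strongest peaks. The peak between drr-2, an RNA-binding protein, and set-16, a histone methyltransferase of the MLL family, had 383.7, 297 and 686.2, with starts 346 bp apart and the summit near the middle. The peak between rps-1, of the small ribosomal subunit, and ifet-1, a translational repressor, had 376.4, 283.7 and 662.9. Both replicates ranked the 6 strongest in almost the same order, replicate 1 between 25 and 50 and replicate 2 between 29 and 58 of all entries.

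Some promoters lay between partners of one process. The peak between hsp-60, the chaperonin of mitochondria, and Y22D7AL.10, whose RefSeq product is the mitochondrial 10 kDa heat shock protein, had 287.1 in replicate 1, 275.9 in replicate 2 and 565.2 pooled. The summit was 195 bp upstream of Y22D7AL.10 and 618 bp upstream of hsp-60. The peak between trap-3 and sec-61.B, both for protein entry into the endoplasmic reticulum, had 200.8, 169.5 and 370.7. The peak between rsp-1 and rsp-2, splicing factors of the SR family, had 122.7, 76.53 and 204.2.

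The other divergent peaks among the 20 strongest follow in order of strength. The peak between rpl-12 and lin-54, the DNA-binding subunit of the DREAM repressor complex, had 279.1 in replicate 1, 272.1 in replicate 2 and 557.2 pooled, with its summit 36 bp upstream of rpl-12. The peak between hsr-9, a relative of the DNA damage protein 53BP1, and rps-19 had 274.2, 230.1 and 499.3. The peak between hsp-90, the cytosolic chaperone, and C47E8.4 had 249.1, 231.3 and 481.5. These were followed by wip-1 / larp-1 with 472.8 in the pooled list, cap-2 / gmps-1 with 462.2, iff-2 / F54C9.14 with 458.2, and Y55F3AR.2 / cct-8 with 457. Here larp-1 encodes an RNA-binding protein, cap-2 an actin-capping subunit, iff-2 a translation factor of the eIF5A type and cct-8 a subunit of the cytosolic chaperonin. The others were apb-1 / mdt-19 with 393.1, scpr-1 / gpap-1 with 392.1, lin-53 / nra-2 with 378.4 and R06C1.4 / wve-1 with 374.8. Of these genes, apb-1 is an adaptin of vesicle coats, mdt-19 a Mediator subunit, lin-53 a histone-binding protein found in several chromatin complexes, and wve-1 a regulator of branched actin.

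Both replicates gave most shared-promoter peaks similar places in their own rankings. Of the 231 peaks, 173 had a summit within 100 bp among the strongest 1631 entries of both replicates, or 74.9% (interval 68.8 to 80.3%), against 69% of single-gene peaks and 68.6% of all autosomal peaks. For 5 neither replicate had one. The signal value was higher in replicate 1 for 178 of the 230 peaks with an entry in both, with a median ratio of 1.2 (quartiles 1.02 and 1.44), and the ratio was 1.2 for single-gene peaks too. Across peaks, Spearman's rho between the replicates was 0.828 (n = 230), against 0.668 over 456 single-gene peaks and 0.62 over 533 peaks outside coding promoters. The peaks were chosen from the pool of both replicates, share these 2 libraries and differ in range of strength, so these correlations are descriptions. The larger of the summit shifts between a replicate and the pool had a median of 13 bp in shared and 23.5 bp in single-gene promoters.

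**Figure D4:**
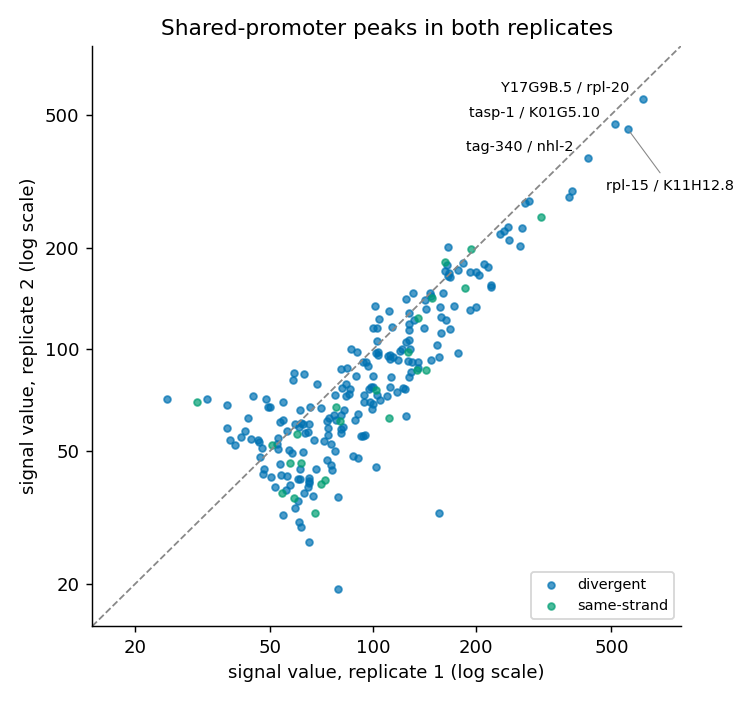
Signal value of shared-promoter peaks in replicate 1 (horizontal) and replicate 2 (vertical), both on log axes, for divergent (blue) and same-strand (green) peaks. The dashed line marks equal values; 178 of 230 peaks lie below it, with a median ratio of 1.2.

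The replicates differed most in rank at a few peaks, most of them weak. The peak between mig-38 and F40F11.3 had 156 in replicate 1, 32.68 in replicate 2 and 184.3 in the pooled list. That between abcf-3 and F42A10.5 had 78.96, 19.3 and 98.68. The reverse held for rab-5 / nmat-2, with 24.78 in replicate 1 and 71.35 in replicate 2, for T09F3.2 / T09F3.7 with 30.54 and 69.62, and for ifbp-1 / cpz-2 with 32.54 and 71.39. The peak between npp-6, a nuclear pore gene, and spd-5, a centrosome gene, had 51.49 in replicate 1 and no entry in replicate 2. None of these is among the 20 strongest, and mig-38 / F40F11.3 was the only one of them with a pooled signal value above the median of 164.7.

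The 23 same-strand peaks had a median of 80.25 in replicate 1, 67.42 in replicate 2 and 141.6 pooled, while the divergent peaks had 92.77, 73.47 and 165.8. The ratio of divergent to same-strand medians, 1.17, turned to 0.741 with a window of 500 bp upstream and to 0.955 among the strongest 815 entries, so no order between the kinds is stated. In 20 of the 23 the summit lay upstream of both starts, and the starts were a median of 551 bp apart (14 to 1190 bp). In 9 of them the gene spans overlapped, so the later start lies inside the transcribed region of the earlier gene.

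The strongest same-strand peak was that of sec-61.G, a subunit of the protein channel of the endoplasmic reticulum, followed downstream by F32D8.13. It had 311.8 in replicate 1, 248.2 in replicate 2 and 562.7 pooled, with the summit 235 bp upstream of sec-61.G. The peak of ddp-1, a mitochondrial import protein, and ttc-7 had 193.9, 198.3 and 391. That of rpb-11, a subunit of RNA polymerase II, and W01G7.4, whose RefSeq product is a nuclear localization protein of the same polymerase, had 162.6, 181.8 and 349.4. In each of these the summit was within 250 bp of the first gene and over 500 bp from the second. The peak of egl-30, a G protein alpha subunit, and C53H9.4 had 334.2, that of pqn-51 and K11D12.14 had 270.4, and that of C47E8.11 and gasr-8 had 235.7 in the pooled list. The last of these had its summit 128 bp inside C47E8.11.

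Windows of 3 genes met at 20 peaks, all of them divergent. The strongest lay between the histone genes his-67 (H4) and his-68 (H2A), with alg-5, an Argonaute gene, farther downstream, and had 168.3 in replicate 1, 115.2 in replicate 2 and 283.5 pooled. The next lay at cux-7, C07H6.2 and lig-4, a DNA ligase gene, with 143.3, 131.7 and 279.7. F29B9.11, jmjd-1.2, a histone demethylase gene, and mrps-21 shared a peak of 223.4 in the pooled list. The next ones were cox-6B and nduc-2, of the respiratory chain, with Y71H2AM.20 (213), mrpl-12 with Y39A1A.21 and Y39A1A.22 (212.6), and ndua-8 with rbc-2 and Y54F10AM.15 (202.2). In 2 gene pairs a promoter held a pair of summits: tim-1 / Y75B8A.23, with pooled signal values of 204.6 and 133, and cids-2 / phip-1, with 153.9 and 117.5. At each of these promoters the intervals of both peaks overlapped. The weaker peak at tim-1 had 66.86 in replicate 1 and 36.68 in replicate 2.

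Of the 14 gene lists, that of cytoplasmic ribosomal proteins had the largest number of genes with a summit in a shared promoter. Of 79 autosomal genes for cytoplasmic ribosomal proteins, 43 had a thresholded promoter summit, 31 of them in a shared promoter, at 28 peaks. Such a gene stood in the window of 12.1% of shared-promoter peaks (interval 8.21 to 17%) and of 2.62% of single-gene peaks (1.36 to 4.53%). These shares are not alike, because a shared window holds at least 2 genes and so has more chances to hold a listed one. Pairing made little difference within this list: 54.7% of its 53 paired genes and 53.8% of its 26 unpaired genes had a summit (intervals 40.4 to 68.4% and 33.4 to 73.4%), while paired genes make up 67.1% of the list and 31.9% of all genes. Their peaks ranged from 1172 at rpl-20 down to 94.58 at rpl-7 / rab-11.1, with a median of 149.5, below the 164.7 of all shared-promoter peaks. Among the 22 divergent peaks with a single ribosomal protein gene, its start was the nearest to the summit in 10, so the summits did not lean to its side. At 3 peaks 2 such genes met: rpl-39 / rps-30 with 128.1, rpl-24.1 / rps-10 with 127, and rps-14 / rpl-36 / ndab-2 with 113.2 in the pooled list.

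Chaperone genes had the next largest number of genes with a summit in a shared promoter. Of 60 genes, 17 had a promoter summit and 14 had it in a shared promoter, with a median pooled signal value of 240. A summit was found at 38.2% of the 34 paired and 15.4% of the 26 unpaired chaperone genes, with overlapping intervals of 22.2 to 56.4% and 4.36 to 34.9%. After hsp-60, hsp-90 and cct-8, the strongest were cct-1, paired with mig-5, at 347.7 and dnj-19 at 322.7. The hsp-110 gene, for a nucleotide exchange factor of HSP70, shares its peak with rpn-3 of the proteasome, at 127.3 in replicate 1, 114.3 in replicate 2 and 244.3 pooled. The gene for mitochondrial HSP70, hsp-6, had 103.5 in the pooled list.

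Other lists of genes for general cell functions had smaller numbers. Beside them, 5.2% of all autosomal protein-coding genes had a promoter summit and 2.77% had one in a shared promoter. Translation factors had 9 of 39 genes with a promoter summit, 6 in shared promoters, led by iff-2 at 458.2, eef-2 at 334.3 and eef-1G at 296.4; the summits stood 81, 33 and 18 bp upstream of these genes. The summits at eef-1A.1 and erfa-3 stood farther off, 365 and 292 bp upstream, and that at eef-1B.1 lay 8 bp inside the gene. Mitochondrial ribosomal proteins had 11 of 70, 8 shared, with mrps-21, mrpl-12 and mrps-7 the strongest at 223.4, 212.6 and 163.1. Their summits stood 991, 539 and 165 bp upstream of these genes. The list of respiratory chain genes had 9 of 37, 4 shared, at atp-1 (291.7), mev-1 (242), cox-6B and atp-2 (112). It was made from a set of gene symbols and leaves out other genes of the chain with shared-promoter peaks, nduc-2 and ndua-8 among them. Splicing genes had 7 of 36, 6 shared, with rsp-1 and rsp-2 followed by prp-40 at 168.4 and sap-140 at 141.1. Of 17 Rab genes of vesicle traffic 5 had a summit, 4 of them shared, with rab-18 at 187.3, rab-7 at 146.1 and rab-5 at 95.36. These summits lay 5 bp inside rab-18, 762 bp upstream of rab-7 and 726 bp upstream of rab-5. Of 33 proteasome genes 4 had one, and the shared ones were rpn-3 and pbs-1, the latter at 110.3. RNA polymerase subunits had 4 of 24, with rpb-11, rpb-7 and rpac-19 (112.3) shared. The tRNA synthetase list had 1 of 32, ears-2 at 249.6, which is 3.12% beside the 5.2% of all genes. Its intervals were wide, 0.169 to 31.9% for 15 paired genes and 0 to 19.5% for 17 unpaired genes. Both hold 5.2%, so no difference from all genes is stated. Histones had 7 of 68, with his-35 / his-41 (101.7) beside his-67 / his-68 as the shared ones.

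The lists of chemoreceptors, collagens and nuclear receptors had the smallest shares of genes with a promoter summit. The lists are sets of gene symbols, and expression was not measured here. Chemoreceptors of 6 families had a promoter summit at 3 of 730 genes (0.411%), each with a shared-promoter peak. Among them were sri-5 with rsr-1 at 272.8 and srh-2 with icl-1 at 95.92. Of the 3, 1 also had a summit of its own in a single-gene promoter. Of these neighbours, rsr-1 encodes a splicing coactivator. Collagens had 2 of 129 genes (1.55%), col-38, which shares its promoter with rpl-5, at 122.6 and col-71 at 105.9. Nuclear receptors had 5 of 246 (2.03%), 3 shared, nhr-47, nhr-68 at 278.4 and nhr-142 at 190.8. Of all genes 5.2% had a promoter summit and 2.77% had one in a shared promoter. In all, 79 of 231 shared-promoter peaks and 39 of 458 single-gene peaks had a gene of at least 1 list in the window. A shared window holds at least 2 genes, so it has more chances to hold a listed one.

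**Figure D5:**
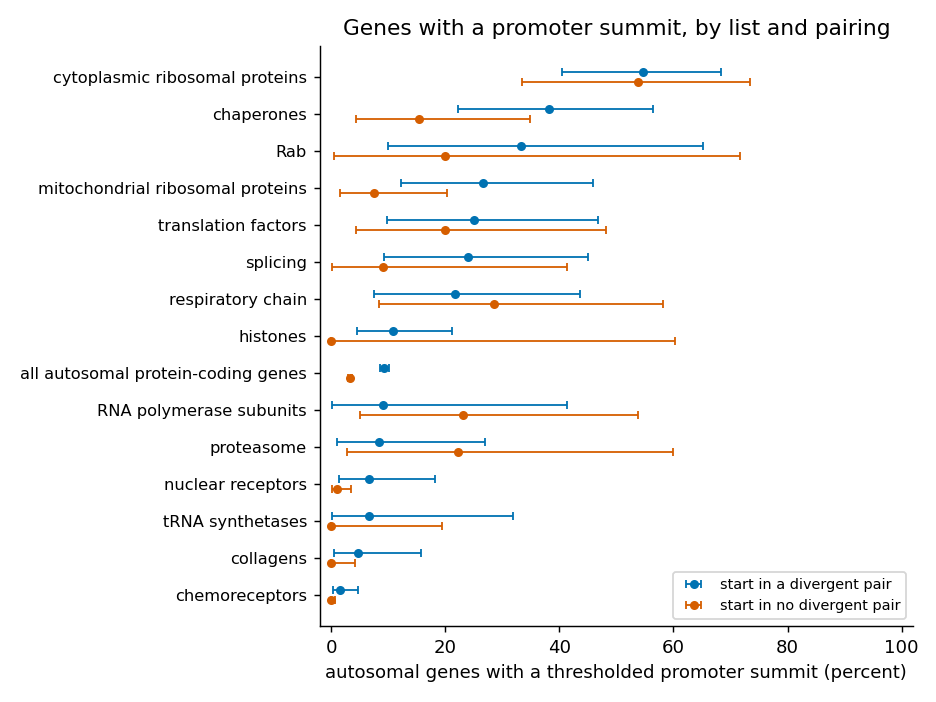
Percent of autosomal genes with a thresholded summit in the promoter window, for 14 gene lists and all coding genes, split by whether the gene's start belongs to a divergent pair. Points are shares and bars exact 95% binomial intervals. A summit in both windows of a pair counts for both genes. Over all genes the shares are 9.32% and 3.26%, and for cytoplasmic ribosomal proteins 54.7% and 53.8%.

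T-box letters were found in few of the shared-promoter peaks. Within 100 bp to either side of the summit, GGTGTG on either strand was found in 12 of 231 peaks, 5.19% (interval 2.71 to 8.9%). It was found in 6.77% of single-gene peaks, in 5.92% of the 946 shared-promoter entries below the threshold, in 5.19% of 2967 windows at the middle of autosomal divergent start pairs, and in 2.81% of 462 windows centred 1000 bp from the summits. The longer GGTGTGA, which contains GGTGTG, was found in 2 peaks, K04G7.1 / syf-2 and C25A1.15 / aha-1. Their pooled signal values were 164.4, with 80.8 and 77.01 in the replicates, and 108.3, with 65.05 and 39.91. The still longer AGGTGTGA was found in 0 of 231 (exact 95% upper bound 1.58%). A match of these letters is a description of the sequence, and its absence says nothing about the protein.

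Other sites differed more between the windows. GAGAGA was found in 29.9% of shared-promoter peaks, 37.3% of single-gene peaks, 12.4% of pair middles and 8.66% of flanking windows. GGGCGG, the GC box, was found in 14.3%, 10.9%, 4.79% and 2.38% in the same order. CTTCTTC, a pyrimidine run, was found in 3.03% of shared-promoter and 11.6% of single-gene peaks, and GGTTCGA, the core of the B box inside tRNA genes, in 0.866% and 3.71%. Pair middles held CTTCTTC in 4.52% and GGTTCGA in 1.15%, near the shares of shared-promoter peaks. Flanking windows held them in 9.96% and 1.52%. TTTCAG, the letters of a splice acceptor, was found in 22.1% of shared-promoter peaks and 39.8% of their flanks. Single-gene peaks held it in 17.7% and pair middles in 33.5%. Of 13 sites searched, the GATA, E-box, bZIP and FoxA letters were each found in 0.433 to 5.63% of shared-promoter peaks. Base composition differed as well, with a median GC content of 42.3% at shared-promoter summits, 44.8% at single-gene summits, 38.6% in the flanks, 37.3% in shared entries below the threshold and 34.3% at pair middles. Its part in the site counts was not tested.

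Several 8-letter words without a named factor were common under the summits and scarce around them. They were picked from the members' own sequences for the size of their excess over the flanks, so the counts describe the choice and support nothing. CTGGCGCA was found on either strand in 26 of 231 peaks (11.3%), 0.433% of flanks, 4.37% of single-gene peaks and 0.775% of pair middles. AAGTGCGC was found in 10.8%, GCGAGACC in 9.96%, AAACGCGC in 9.52% and AAATGCGC in 8.66% of the peaks, each in less than 1% of flanks. Single-gene peaks held these words in 6.11%, 3.93%, 6.77% and 4.15%, in the same order. GCGCTCCA was found in 9.52% of shared-promoter and 2.18% of single-gene peaks, and CGTAAATC in 9.09% and 3.06%. GAGACGCA went the other way, with 9.96% of shared-promoter and 15.9% of single-gene peaks.

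The strongest 20 shared-promoter peaks held words that were rare in the other 211. The words were chosen after these sequences had been compared, so the counts describe the choice and support nothing. CGCTCCAC and GCGCTCCA, given above, share most of their letters and are not separate observations. CGCTCCAC was found in 6 of the 20, in 5.21% of the others, 1.75% of single-gene peaks and 0 of 462 flanking windows. CTACGCAG was found in 6 of the 20, under the summits of tag-340 / nhl-2 and drr-2 / set-16 among them, and in 2.37% of the others and 0.218% of single-gene peaks. ATACACTC was found in 4 of the 20 and 0 of the other 211, but in 1.53% of single-gene peaks. These 4 are the rpl-20, rpl-15, tasp-1 and rps-1 promoters printed above, of which all also held CGCTCCAC.

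Some shared-promoter summits also lay at small RNA genes. A gene for a tRNA, snoRNA, snRNA, miRNA or other RNA of at most 200 bp lay within 100 bp of 35 of 231 summits, 15.2% (interval 10.8 to 20.4%), against 19.9% (16.3 to 23.8%) in single-gene promoters and 27.7% (24 to 31.7%) outside coding promoters. Without the class of unspecified small RNAs, the shares were 5.19% (2.71 to 8.9%), 10.3% (7.64 to 13.4%) and 18.4% (15.2 to 21.9%). The intervals of shared and single-gene promoters overlap in both counts, and the difference was not tested. The strongest of the 35 had only an unspecified small RNA gene at the summit. They were tag-340 / nhl-2 (796.5 pooled), rps-1 / ifet-1 (662.9), trap-3 / sec-61.B (370.7) and icd-1 / vps-32.1 (338.2). Of the 12 peaks with a gene of the other classes, the strongest was rps-26 / tmem-107 with the snoRNA gene F39B2.14 at its summit. It had 166.2 in replicate 1, 165 in replicate 2 and 329.2 pooled. It was followed by klc-1 / let-70 with the snoRNA gene M7.15 (272.8), pqn-71 / rocf-1 with 2 tRNA genes (271.5), cpr-9 / gcy-33 with a tRNA gene (224.9) and F55A11.6 / F55A11.11 with a snoRNA gene (221.4). The lists carry no strand, so a coding and an RNA gene at the same summit cannot be told apart as the bound one.

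The number of shared-promoter peaks differed between the autosomes. Chromosome III held 57, or 4.14 per Mb, with a summit at 12.2% of its 508 divergent pairs (interval 9.49 to 15.4%). The other autosomes had 2.12 to 3.52 peaks per Mb and a summit at 5.6 to 9.06% of their divergent pairs. The highest of these, chromosome I, had an interval of 6.8 to 11.8%, which overlaps that of chromosome III. The central 50% of the chromosomes held 58.9% of the shared-promoter peaks, the same share as of all divergent pairs, and 64.4% of single-gene peaks.

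The peaks nearest to the limits of the rule, 3 on each side, are given here. Just inside the upstream limit were ZC412.10 / ZC412.5 and C24F3.2 / tram-1, each with a second gene 999 bp away and signal values of 101.8 and 92.48, and C18D11.3 / maa-1 at 997 bp with 102.6. Just outside were single-gene peaks whose next gene was nasp-2 at 1002 bp (93.55), nol-58 at 1006 bp (125.5) and spcs-3 at 1033 bp (285.6). At the downstream limit, ZC412.10 at 191 bp, C47E8.11 at 128 bp and F55A11.6 at 107 bp were inside, and Y53G8AL.4 at 271 bp, nspg-9 at 302 bp and Y39G10AR.32 at 316 bp were outside. The weakest peaks were hgo-1 / spe-46 with a pooled signal value of 91.64, enu-3.1 / smrd-1 with 92.35 and C24F3.2 / tram-1. The strongest shared-promoter entry that missed the threshold, clec-57 / srz-97, had 90.77.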

How the data were processed

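Peak lists of TBX-2 ChIP-seq in 2 biological replicates of whole L3 worms were used on build ce11. Per the deposited file listing, the authors made ranked lists of peaks and background for each replicate and for the pool, and a list thresholded on the irreproducible discovery rate. The signal value is the peak caller's own, deposited by the authors without scaling between lists, and was used to rank and describe peaks. The aligner, the caller and its settings were not given in the sources used here, and a control experiment named in the labels was not analysed here. Read depth is unknown because no read counts are listed. Replicate 1 held 28366 ranked entries, and replicate 2 and the pool 30000 each.

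Summits were compared with transcript starts of Ensembl release 115 for WBcel235, the assembly of ce11, in windows of 1000 bp upstream to 200 bp downstream. A replicate's value at a peak is that of its overlapping entry. Sites were searched on both strands within 100 bp of the summit in RefSeq sequence. Shares carry exact Clopper-Pearson 95% intervals, which treat peaks as independent. No test between groups was possible with 1 group, and none was run over peaks. Scripts ran in Python 3.11.15 with pandas 2.3.3, numpy 2.4.6 and scipy 1.17.1, and the rules were tested on simulated summits and sequences.

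The members, gene lists and sites were chosen with earlier results of these data known. The rule for named genes took the 20 strongest peaks, the 6 strongest of each kind, up to 3 per gene list and those with GGTGTGA. It also took 3 peaks at each window limit, the 3 weakest and the 5 with the largest rank difference between replicates. Of peaks with a small RNA gene, the 5 strongest with a gene outside the unspecified class were taken. Other named genes were chosen after their values were seen. Genes that a list's symbols do not cover, such as Y22D7AL.10 among chaperones, were not counted in it. A result that names an item withheld for evaluation is not reported here.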

Additional observations from a re-analysis of the deposited data

How the results depend on the processing

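With 10 results and up to 11 alternatives each, 58 of 80 recomputed values moved by less than their interval, the spread between replicates or, for counts, 1.5 times. With windows of 500 bp and 2000 bp upstream, the number of shared-promoter peaks was 149 and 371, their share of autosomal peaks 12.2% and 30.3%, the divergent share 95.3% and 83.6%, and the ratio of shared to single-gene median signal 1.25 and 1.08. With 2000 bp upstream, summits between divergent starts made up 77.9%, and with 0 bp downstream 91%. Among the strongest 815 entries, there were 140 shared-promoter peaks, 23.9% of the autosomal ones, the ratio of shared to single-gene medians was 1.08, and 4.53% of divergent pairs had a summit. That ratio was 1.18 with only the outermost start of each gene, 1.18 without peaks at small RNA genes, and 1.17 to 1.2 when a replicate was left out. The ratio of divergent to same-strand medians was 0.741 with 500 bp upstream, 0.955 among the strongest 815 entries, 1.03 without peaks at ribosomal protein genes, and 1.07 to 1.19 when a replicate was left out. A small RNA gene over the summit itself was found at 6.49% of the peaks. Fewer and stronger entries, or wider windows, change which peaks are counted; the causes of the other shifts were not tested. No paired analysis was possible because there is only 1 group. Unknown read depth and a single pair of replicates limit how finely signal values can be compared, and a list of peaks says nothing about sites below its lowest entry.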
